A study of Mus musculus with 9 samples.

Results

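The transcripts of 4 genes of young neurons, Sox4, Sox11, Dcx and Cd24a, were followed in layer IV of the mouse barrel cortex across 3 genotypes of Gap43. All probe sets that the platform annotation assigns to these symbols were taken, and the genes had been selected on their array signals in these same genotypes, so their differences are given as a description with no test. The 4 genes are 4 of the 12394 genes named on the array. They have 14 probe sets (a probe set is the group of short probes that together report a transcript), of which 12 were bright enough to enter the fit: 4 of 6 for Sox4, 1 of 1 for Sox11, 4 of 4 for Dcx and 3 of 3 for Cd24a.

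Layer IV receives the thalamic axons of the whisker pathway, which end there in the clusters called barrels. It was cut out by laser microdissection from untreated C57BL/6 mice at postnatal day 5, so each array holds the RNA of all cells in that layer. The groups were wild type (WT), heterozygous (HZ) and knockout (KO) for Gap43, the gene of a growth cone phosphoprotein, and differed by genotype alone as far as the labels say. Each genotype had 3 mice with 1 array each, so n = 3 per genotype throughout. The labels name no restriction of the KO to a tissue or cell type, and the removed stretch of Gap43 and the number of founder clones of the line were not in the sources used here.

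Sox4, Sox11 and Sox12 form the SoxC group of transcription factors, which carry an HMG box that binds and bends DNA. They are switched on as newborn neurons leave the cell cycle, activate genes of early neuronal differentiation such as Tubb3 and Dcx, and decline as neurons mature. Dcx encodes doublecortin, which stabilises the microtubules of migrating neurons and whose loss disturbs the layering of the cortex. Cd24a encodes a small sialoglycoprotein, held on the cell surface by a lipid anchor, that is abundant on young neurons and takes part in neurite growth together with the adhesion molecule L1.

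The 250 bases before the annotated start of both SoxC genes are shown because Sox11 and Sox4 are close relatives whose signals differed in behaviour across the genotypes. They are RefSeq sequence of build GRCm38.p6, from the minus strand, 5′ to 3′, at chr12:27342719-27342968 for Sox11 and chr13:28953700-28953949 for Sox4. Capitals mark CCAAT, the box read by the NF-Y factor, on either strand (ATTGG is its reverse complement).
Sox11: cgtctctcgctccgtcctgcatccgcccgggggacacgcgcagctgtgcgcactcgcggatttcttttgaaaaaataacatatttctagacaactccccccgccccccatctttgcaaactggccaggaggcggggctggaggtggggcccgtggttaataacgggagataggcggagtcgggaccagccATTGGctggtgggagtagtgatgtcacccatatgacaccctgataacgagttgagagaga
Sox4: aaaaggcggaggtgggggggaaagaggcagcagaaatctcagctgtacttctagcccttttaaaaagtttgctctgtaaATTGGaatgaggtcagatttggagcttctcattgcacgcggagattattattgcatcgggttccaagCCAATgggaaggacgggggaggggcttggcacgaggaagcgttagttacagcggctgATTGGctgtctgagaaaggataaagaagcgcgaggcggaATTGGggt
The Sox11 window holds 1 such match, on the opposite strand 60 to 56 bases before the start. The Sox4 window holds 4, of which 1 is on the strand of the gene and 3 are on the opposite strand. Of 32851 annotated windows of 250 bases, 33.8% hold CCAAT on either strand. The windows have 58.0% and 50.8% G and C for Sox11 and Sox4.

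The letters AACAAAG and AACAATG, which Sox factors read, were searched on both strands of the same windows and found in neither SoxC gene. For Dcx, a gene that SoxC factors are reported to activate, AACAAAG lies 9 to 3 bases before its second annotated start. A short stretch around it, RefSeq build GRCm38.p6, chrX:143933125-143933144, minus strand, is shown with the match in capitals.
Dcx: ggagctcagacAACAAAGgc
AACAAAG is held by 5.03% of all 32851 windows, and either Sox motif by 8.12%. A match is a string of letters and not a measured binding site.

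The arrays were alike in scale and overall agreement. The authors' signals had a trimmed mean of 500.2 on every array, and values of arrays correlated at r = 0.958 to 0.978 within a genotype and 0.949 to 0.973 between genotypes, across probe sets. Gap43 itself had signals of 7089, 4746 and 4294 in WT, 5015, 5039 and 4389 in HZ, and 979, 1930 and 1299 in KO. It fell 3.85-fold in KO against WT (limma, Benjamini-Hochberg adjusted p = 0.0173) and also against HZ (adjusted p = 0.0362), while its HZ and WT arrays overlapped (adjusted p = 0.915). Every KO array was below every other array. With 1 array left out the adjusted p of KO against WT lay between 0.0044 and 0.0698 and missed the threshold without WT replicate 1, WT replicate 2, HZ replicate 2 or KO replicate 3. That of KO against HZ lay between 0.0082 and 0.168 and missed it without any of the 3 HZ arrays, WT replicate 2, KO replicate 1 or KO replicate 3. Xist and Y-linked transcripts placed 2 females and 1 male in each genotype. The 3′/5′ signal ratio of the control transcripts was 3.31 to 3.96 on the log2 scale on 8 arrays and 4.72 on HZ replicate 2. Of the 8 markers of layer IV and upper layer neurons on the array, 5 passed the brightness filter. So did 9 of 10 markers of deep layers and the subplate. Of all 12394 genes named on the array, 8503 passed it, so these counts alone do not identify the layer.

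Sox11 was the member that set the KO apart. Its single probe set, 1436790_a_at, gave signals of 446, 260 and 433 in WT, 350, 447 and 307 in HZ, and 1523, 626 and 770 in KO. Every KO array lay above every WT array and every HZ array, and WT and HZ overlapped. Mean signals were 380 ± 104 in WT, 368 ± 71.7 in HZ and 973 ± 482 in KO (SD, n = 3 each). The order of the levels was thus KO above WT and HZ, and the last pair did not differ beyond its spread.

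On the log2(signal + 16) scale, the difference of Sox11 between KO and WT was 1.25 ± 0.30 (SE), or 2.38-fold. Between KO and HZ it was 1.27 ± 0.30, or 2.42-fold, and between HZ and WT it was -0.02 ± 0.30. These comparisons share arrays: KO against WT and KO against HZ use the same KO arrays, and both comparisons with WT use the same WT arrays. Among the 13576 probe sets in the fit, 4 (0.0295%) had a higher KO minus WT difference, and 14 (0.103%) a higher KO minus HZ difference. Because Sox11 was selected on its signals in these genotypes, nothing is read from these places.

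KO replicate 1, a male, carried the highest Sox11 signal. Without it the difference from WT was 0.88, and without KO replicate 2, the lowest KO array, it was 1.51. Leaving out WT replicate 2, the lowest array of all, gave 1.01. Within females the KO minus WT difference was 0.99 and for the single male of each genotype it was 1.78, while the HZ minus WT difference was 0.12 and -0.30. The Sox11 difference of KO from WT was thus above 0 among females and for the male pair, with a size that depended on 1 KO array. That array is the only KO male, so the male value rests on 1 array per genotype. A difference between the sexes was not tested.

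**Figure D1:**
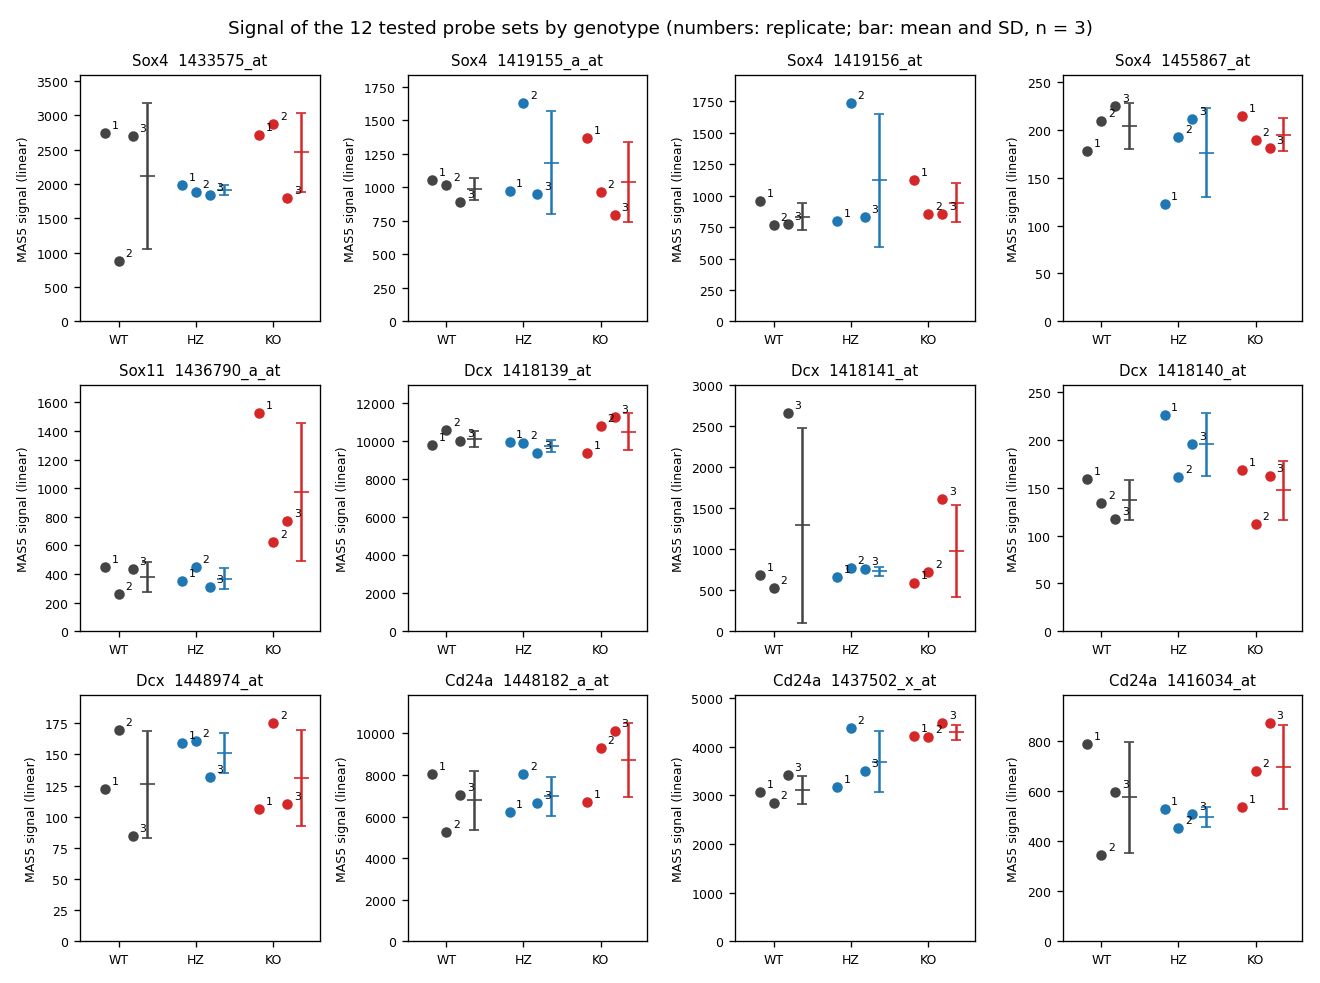
Signal (linear MAS5 intensity, each panel's axis starting at 0) of the 12 fitted probe sets of Sox4, Sox11, Dcx and Cd24a, 1 panel each, on each of the 9 arrays by genotype, numbered by replicate, with the genotype mean and SD (n = 3). The Sox11 KO arrays at 626 to 1523 sit above all WT and HZ arrays, whereas the genotypes overlap for the brightest sets of Sox4, Dcx and Cd24a.

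Sox4, the nearest relative of Sox11, did not follow it. Its brightest probe set, 1433575_at, gave 2750, 883 and 2703 in WT, 1987, 1887 and 1848 in HZ, and 2709, 2880 and 1803 in KO. WT replicate 2 was the lowest array by far and the other WT arrays lay within the range of the KO, so the genotypes overlapped. Means were 2112 ± 1065 in WT, 1908 ± 71.7 in HZ and 2464 ± 579 in KO. The log2 differences were 0.36 ± 0.34 for KO minus WT, 0.02 ± 0.34 for HZ minus WT and 0.34 ± 0.34 for KO minus HZ. Without WT replicate 2 the KO minus WT difference turned to -0.17 and the HZ minus WT difference to -0.51.

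The other Sox4 probe sets did not repeat the brightest one. Set 1419155_a_at gave 1054, 1016 and 893 in WT, 974, 1626 and 952 in HZ, and 1369, 961 and 790 in KO, a KO minus WT log2 difference of 0.04 ± 0.23. Set 1419156_at gave 959, 767 and 776 in WT, 797, 1735 and 832 in HZ, and 1125, 853 and 855 in KO, a difference of 0.17 ± 0.26. HZ replicate 2, the array with the highest 3′/5′ ratio, was the highest of all 9 in both; the part of that ratio in these values was not tested. The dimmer set 1455867_at ranged from 178 to 225 in WT, 123 to 211 in HZ and 181 to 214 in KO. Over the 9 arrays, sets 1419155_a_at and 1419156_at correlated at r = 0.89, while the brightest set correlated with the other 3 fitted sets at -0.03 to 0.15.

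A further pair of Sox4 sets was below the brightness filter. Set 1449370_at gave 28.1, 26.3 and 65.6 in WT, 109, 63.7 and 99.2 in HZ, and 136, 69.9 and 52.8 in KO. Fitted without the filter, its difference was 0.85 ± 0.37 for KO minus WT and 0.97 ± 0.37 for HZ minus WT, at levels where MAS5 signals are noisy. Set 1419157_at stayed between 8.88 and 27.6 on all arrays, so that no direction was read from it. Across its 6 sets, Sox4 had no genotype difference shared by the bright sets.

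Sox12, the remaining SoxC gene, gave 720, 575 and 601 in WT, 469, 561 and 741 in HZ, and 683, 532 and 411 in KO. Its genotypes overlapped, and the KO minus WT log2 difference was -0.24 ± 0.21 (limma adjusted p = 0.813). Of the 3 SoxC genes, 1 (Sox11) had KO arrays clear of the other genotypes, and it had been selected on these signals. Over all probe sets, KO arrays were all above WT arrays in 7.83% and all above HZ arrays in 6.67%. Nothing is read from the count.

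Outside the members, 10 genes of the Sox family were tested, Sox12 among them, and none passed the adjusted threshold of 0.05 in any comparison. In KO against WT, 1 was higher and 0 were lower at an unadjusted p under 0.05, beside 4.43% and 3.59% of all probe sets, and the median log2 difference was 0.11, beside 0.02 over all 8503 genes. Sox6, a SoxD factor that delays maturation of neural precursors and specifies interneurons, averaged 368 in WT and 542 in KO (0.53 ± 0.19, adjusted p = 0.537). Sox5, another SoxD gene, known for its role in deep layer neurons, gave 123, 188 and 168 in WT, 125, 30.3 and 162 in HZ, and 295, 200 and 246 in KO. All its KO arrays were above all others, with a KO minus HZ difference of 1.31 ± 0.39 (adjusted p = 0.45) and a KO minus WT difference of 0.58 ± 0.39 (adjusted p = 0.747). The set is dim, and HZ replicate 2, the array with the highest 3′/5′ ratio, was far below the other HZ arrays. The part of that array in the KO minus HZ difference was not tested. Sox13, also a SoxD gene, ranged from 120 to 165 in WT, 93.8 to 169 in HZ and 167 to 216 in KO (KO minus WT 0.41 ± 0.23, adjusted p = 0.69). Sox18, a factor of endothelial cells, differed by -0.47 ± 0.24 between KO and WT (adjusted p = 0.664), and Sox7, also endothelial, by 0.70 ± 0.24 between HZ and WT (adjusted p = 0.789). Sox2, the factor of neural progenitors, differed by 0.11 ± 0.25 between KO and WT (adjusted p = 0.929).

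Dcx was bright and nearly level. Its brightest probe set, 1418139_at, gave 9779, 10575 and 9987 in WT, 9968, 9906 and 9389 in HZ, and 9386, 10800 and 11252 in KO. The genotypes overlapped, with means of 10113 ± 413, 9754 ± 318 and 10479 ± 973. The log2 differences were 0.05 ± 0.10 for KO minus WT, -0.05 ± 0.10 for HZ minus WT and 0.10 ± 0.10 for KO minus HZ. The KO minus WT value was -0.01 without KO replicate 3. In this set Dcx, known as a target of SoxC factors, had a KO to WT difference smaller than its error. On the same arrays Sox11 was 2.38-fold higher. An action of Sox11 on Dcx was not tested.

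The dimmer Dcx sets varied more. Set 1418141_at gave 685, 526 and 2657 in WT, 665, 770 and 758 in HZ, and 594, 720 and 1615 in KO. WT replicate 3, a male, and KO replicate 3, a female, stood far above the rest, and the KO minus WT difference was -0.16 ± 0.48, with 0.83 among females and -2.13 for the male pair. Set 1418140_at gave 159, 134 and 117 in WT, 226, 161 and 196 in HZ, and 168, 112 and 162 in KO. Here every HZ array was above every WT array (0.46 ± 0.22), whereas KO minus WT was 0.09 ± 0.22. Set 1448974_at ranged from 84.5 to 170 in WT, 132 to 161 in HZ and 106 to 175 in KO, which overlapped. Pairs of Dcx sets correlated at -0.72 to 0.27 over the 9 arrays, so these sets did not move as a unit.

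The KO mean of Cd24a was above the WT mean by a modest amount in each of its 3 sets, which are not independent measurements. Its brightest set, 1448182_a_at, gave 8070, 5278 and 7015 in WT, 6242, 8034 and 6666 in HZ, and 6725, 9301 and 10118 in KO. KO replicates 2 and 3 were above all WT and HZ arrays but KO replicate 1 was among them. Means were 6788 ± 1410, 6980 ± 937 and 8715 ± 1771, and the KO minus WT log2 difference was 0.36 ± 0.18. It was 0.19 without WT replicate 2 and 0.54 without KO replicate 1.

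Set 1437502_x_at of Cd24a gave 3072, 2850 and 3423 in WT, 3170, 4385 and 3507 in HZ, and 4218, 4205 and 4478 in KO. All KO arrays were above all WT arrays, and HZ lay between and overlapped both. The KO minus WT difference was 0.47 ± 0.14, or 1.38-fold, with means of 3115 ± 289 in WT, 3687 ± 627 in HZ and 4300 ± 154 in KO. The letter x in its name marks a set that may also bind other transcripts. Set 1416034_at gave 789, 347 and 596 in WT, 531, 452 and 510 in HZ, and 539, 680 and 872 in KO. Its KO arrays were all above its HZ arrays (0.45 ± 0.26) but overlapped WT (0.31 ± 0.26). WT replicate 2 was its lowest array, at 347, and the other WT arrays lay within the KO range. Over the 9 arrays, the brightest Cd24a set correlated at r = 0.71 with 1437502_x_at and 0.82 with 1416034_at. These last sets correlated with each other at 0.36.

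The KO minus WT values of Cd24a within each sex were as follows. Among females, KO minus WT was 0.57, 0.55 and 0.54 in the 3 sets (1448182_a_at, 1437502_x_at and 1416034_at), and for the male pair it was -0.06, 0.30 and -0.14. In 1437502_x_at the male KO array lay between the female ones. With 1 male in each genotype, a difference between the sexes was not tested.

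**Figure D2:**
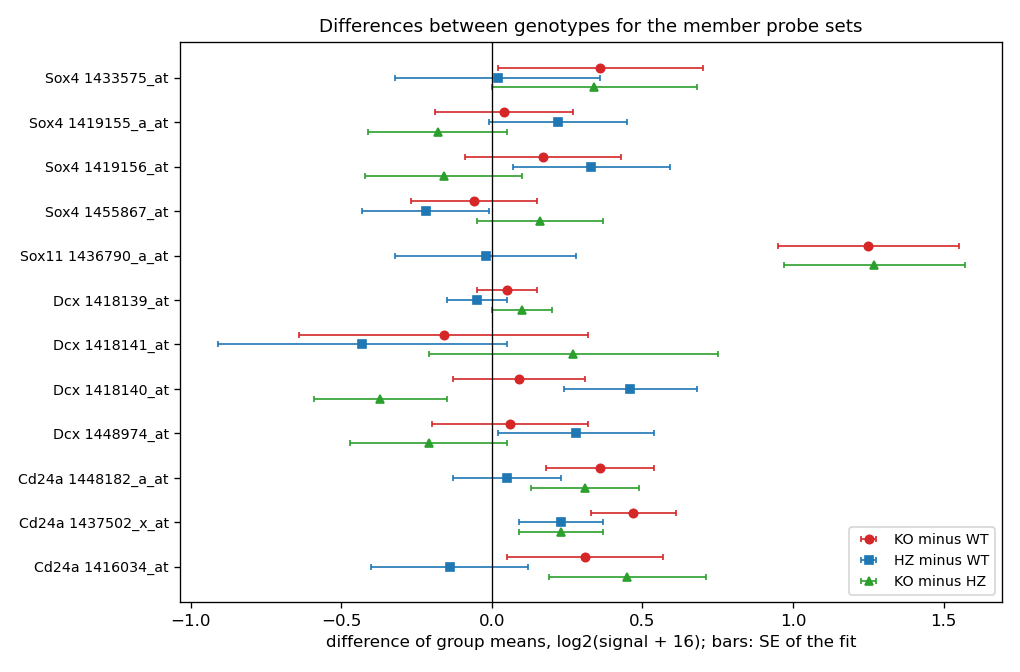
Log2 difference, in units of log2(signal + 16), of KO minus WT, HZ minus WT and KO minus HZ for each of the 12 fitted probe sets of Sox11, Sox4, Dcx and Cd24a, with the SE of the fit. Sox11 lies at 1.25 and 1.27 in the comparisons with KO and at -0.02 in HZ minus WT, and the KO minus WT values of the 3 Cd24a sets lie between 0.31 and 0.47.

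Over the 12 fitted sets of the 4 genes, KO arrays were all above WT arrays in 2 (1436790_a_at of Sox11 and 1437502_x_at of Cd24a), and 0 had all KO arrays below. Over all probe sets these shares were 7.83% and 5.83%. The KO minus WT difference was above 0 in 10 of 12 sets, with a median of 0.13, beside 53.7% and 0.02 over all sets. HZ arrays were all above WT arrays in 1 set, 1418140_at of Dcx, and below in 0, beside 8.51% and 4.39% of all sets. The HZ minus WT median was 0.04, beside 0.03 over all sets. KO arrays were all above HZ arrays in 2 sets, the Sox11 set and 1416034_at of Cd24a, and below in 0, beside 6.67% and 7.35%. The KO minus HZ median was 0.20, beside -0.02. Because these contrasts chose the genes, nothing is read from the shares.

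The pairs of members gave unequal correlations over the arrays. Between brightest sets, r over the 9 arrays was 0.55 for Sox4 and Sox11, 0.45 for Sox11 and Cd24a, 0.52 for Sox4 and Cd24a, 0.46 for Dcx and Cd24a, -0.01 for Sox11 and Dcx, and -0.29 for Sox4 and Dcx. After each genotype's mean was removed, the values in the same order were 0.53, -0.05, 0.43, 0.35, -0.75 and -0.51. Spearman's rho was 0.45, 0.72, 0.38, 0.37, 0.02 and -0.23. Without the 2 arrays farthest from the median of the first gene, r was 0.35, 0.95, -0.26, -0.48, 0.30 and -0.40. These values share their arrays and are given with no p.

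Immature neuron genes beyond the 4 members were higher in KO more often than lower, with none past the adjusted threshold. Of 45 listed genes of immature and migrating neurons, 42 were on the array and 38 were tested. Like the other lists, this one was chosen with earlier results of these data known, so its counts are given as a description. In KO against WT, 6 were higher and 1 was lower at an unadjusted p under 0.05, beside 4.43% and 3.59% of all probe sets. A total of 26 of the 38 had a difference above 0, beside 53.7% of all probe sets. The median was 0.17, beside 0.02 over all genes. In HZ against WT, 2 were higher and 0 lower, beside 4.06% and 2.16%, with a median of 0.06 beside 0.04. In KO against HZ, 5 were higher and 1 lower, beside 3.96% and 3.76%, with a median of 0.07 beside -0.03. The count of 6 was 3 without KO replicate 1 and 11 when noisier arrays were given less weight, and the median of KO against WT stayed between 0.11 and 0.20. The count of 5 in KO against HZ was 2 without KO replicate 2 or KO replicate 3, 3 without HZ replicate 1 or HZ replicate 3, and 8 without KO replicate 1. The count of 2 in HZ against WT was 0 without HZ replicate 2, 1 without WT replicate 1 or WT replicate 3, and 4 without WT replicate 2, HZ replicate 1 or KO replicate 1.

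Dpysl5, a CRMP-family protein that steers growth cones and dendrites, gave 438, 546 and 575 in WT, 613, 795 and 690 in HZ, and 777, 750 and 687 in KO. Both HZ and KO lay above all WT arrays, by 0.42 ± 0.17 (adjusted p = 0.789) and 0.50 ± 0.17 (adjusted p = 0.518). Tubb3, the neuronal beta-tubulin that SoxC factors are known to activate, gave 3062, 3321 and 2936 in WT, 3286, 2933 and 3061 in HZ, and 4134, 3499 and 4113 in KO. Like Sox11, its KO arrays were above all WT and HZ arrays, but the difference was smaller (0.33 ± 0.13, adjusted p = 0.548). Neurod6, a transcription factor of young excitatory neurons, gave 2123, 1338 and 1569 in WT, 1917, 1622 and 1543 in HZ, and 1867, 3178 and 2801 in KO. Its KO replicate 1, the array with the highest Sox11, overlapped WT (0.63 ± 0.21, adjusted p = 0.519).

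Of the other 3 higher genes, Cdk5r1, the activator of the kinase Cdk5, ranged from 2245 to 2706 in WT and 2877 to 3956 in KO (0.45 ± 0.16, adjusted p = 0.537), with 0.04 and 0.22 in its other sets. Crmp1, a partner of semaphorin signalling, ranged from 5932 to 7617 in WT and 7698 to 8390 in KO (0.30 ± 0.12, adjusted p = 0.575). Elavl3, a neuronal RNA-binding protein, ranged from 2065 to 2647 in WT and 2750 to 3422 in KO (0.37 ± 0.15, adjusted p = 0.586). The gene that was lower was Calb2, the calcium buffer calretinin, which marks young neurons and some interneurons. It gave 959, 855 and 384 in WT, 966, 1242 and 507 in HZ, and 316, 334 and 467 in KO, with KO overlapping WT (-0.87 ± 0.35, adjusted p = 0.58) and below all HZ (-1.18 ± 0.35, adjusted p = 0.444). In HZ against WT, St8sia2, which adds polysialic acid to NCAM, was higher by 0.49 ± 0.22 (adjusted p = 0.789).

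**Figure D3:**
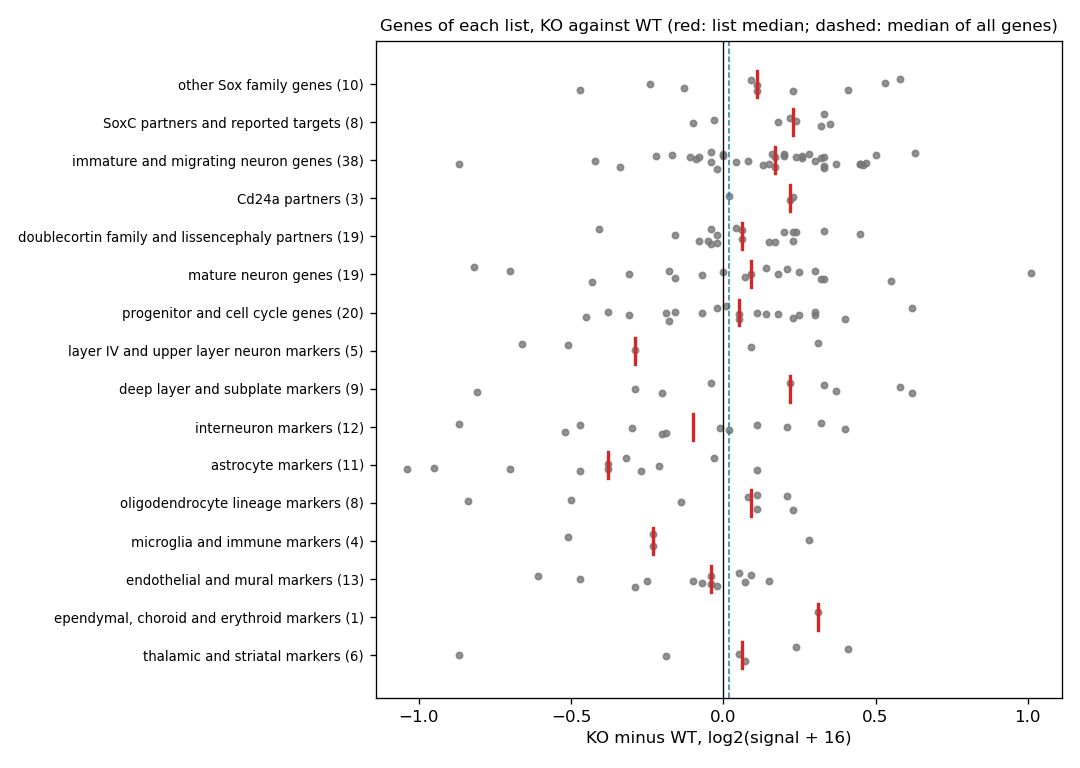
KO minus WT log2 difference, in units of log2(signal + 16), of every tested gene in 16 lists, 1 point per gene, with each list's median and the median over all genes. The immature neuron list has a median of 0.17 with 26 of 38 genes above 0, and the astrocyte list a median of -0.38 with 1 of 11 above 0. Over all probe sets, 53.7% were above 0.

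Genes tied to the individual members are read against the 4.43% of all probe sets that were higher and the 3.59% that were lower in KO against WT at an unadjusted p under 0.05, and against the all-gene median of 0.02. Of 16 SoxC partners and reported targets on the array, 8 were tested, with 1 (Tubb3) higher and 0 lower in KO against WT and a median of 0.23. Eomes, a factor of intermediate progenitors, gave 127, 150 and 133 in WT, 244, 154 and 177 in HZ, and 198, 155 and 183 in KO, so that HZ (0.42 ± 0.20, adjusted p = 0.79) and KO (0.35 ± 0.20, adjusted p = 0.72) were above all WT arrays. Fezf2, a deep layer factor that SoxC proteins regulate, ranged from 92.1 to 706 in WT and 133 to 831 in KO (0.22 ± 0.71, adjusted p = 0.953). The doublecortin family and its lissencephaly partners were represented by 19 tested genes, with 2 higher (Cdk5r1 and Tubb3), 1 lower and a median of 0.06. The lower one, Dync1h1, the heavy chain of the dynein motor that moves the nucleus, differed by -0.41 ± 0.16 (adjusted p = 0.552). Pafah1b1, the LIS1 subunit of that pathway, differed by 0.15 ± 0.20 (adjusted p = 0.878). Ywhae, the 14-3-3 epsilon protein, was higher in all HZ arrays than in WT, by 0.19 ± 0.11 (adjusted p = 0.79).

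Among the partners of Cd24a, 3 of 5 on the array were tested, and 0 reached an unadjusted p under 0.05. L1cam, the adhesion molecule that Cd24a binds, differed by 0.23 ± 0.17 between KO and WT (adjusted p = 0.757). Fyn, a kinase that signals inside the membrane domains holding Cd24a, differed by 0.22 ± 0.13 (adjusted p = 0.726), and by 0.05 in its other set. Src, a related kinase, differed by 0.02 ± 0.20 (adjusted p = 0.981), and by -0.48 in its other set.

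Genes that mark the stages before and after the young neuron had medians near that of all genes in KO against WT. Of 19 mature neuron genes, 2 were higher and 0 lower at an unadjusted p under 0.05, beside 4.43% and 3.59% of all probe sets, with a median of 0.09 beside 0.02. Dlg4, the postsynaptic scaffold PSD-95, gave 128, 337 and 187 in WT, 364, 474 and 426 in HZ, and 532, 418 and 337 in KO (KO minus WT 1.01 ± 0.28, adjusted p = 0.46), with HZ and KO overlapping. Syt1, the calcium sensor of synaptic vesicles, differed by 0.55 ± 0.21 in its brightest set (adjusted p = 0.557) and by -0.24 in its other set. Against HZ, 0 mature neuron genes were higher in KO and 2 were lower, beside 3.96% and 3.76% of all probe sets, with a median of -0.19 beside -0.03, led by Grin2b, an NMDA receptor subunit (-0.74 ± 0.21, adjusted p = 0.441). Of 20 progenitor and cell cycle genes, 2 were higher and 1 lower in KO against WT, with a median of 0.05. Hes5, a Notch target, differed by 0.62 ± 0.25 (adjusted p = 0.581), and by 0.22 in its other set. Slc1a3, the glial glutamate transporter, differed by -0.38 ± 0.15 (adjusted p = 0.576), and by -0.04 in its other set. In HZ against WT, Nes, the progenitor filament nestin, differed by 0.52 ± 0.17 (adjusted p = 0.789). In KO against HZ, the cyclin gene Ccnd1 differed by -0.33 ± 0.15 (adjusted p = 0.633).

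Astrocyte markers were lower in KO than in WT more often than higher, with none past the adjusted threshold. The summed signal of the 11 tested markers, of 14 on the array, was 17765 to 23855 in WT, 17270 to 18176 in HZ and 13445 to 17524 in KO, so that all KO arrays were below all WT arrays but overlapped HZ. Of these 11, 0 were higher and 5 lower in KO against WT at an unadjusted p under 0.05, beside 4.43% and 3.59% of all probe sets, with a median of -0.38 beside 0.02 over all genes. Gja1, the astrocyte gap junction protein, gave 3819, 4592 and 5081 in WT and 2298, 2527 and 1731 in KO (-1.04 ± 0.16, adjusted p = 0.114). S100b, a calcium-binding protein of astrocytes, differed by -0.95 ± 0.21 (adjusted p = 0.361), and Glul, glutamine synthetase, by -0.49 ± 0.16 in HZ against WT (adjusted p = 0.789).

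Markers of cortical layers went both ways within each list. Of 5 layer IV and upper layer markers, 2 were above 0 and 3 below in KO against WT, with a median of -0.29 beside 0.02. Over all probe sets, 53.7% were above 0. At an unadjusted p under 0.05, 0 were higher and 1 lower, beside 4.43% and 3.59% of all probe sets. The lower one, Rorb, the nuclear receptor that marks layer IV neurons, gave 541, 460 and 589 in WT, 709, 518 and 601 in HZ, and 325, 356 and 302 in KO (-0.66 ± 0.17, adjusted p = 0.435). Btbd3, which orients dendrites in layer IV, differed by -0.51 ± 0.29 (adjusted p = 0.7), Lhx2 by 0.31 ± 0.32 (adjusted p = 0.842) and Cux2 by 0.09 ± 0.28 (adjusted p = 0.957). Cux1, a factor of upper layers, differed by -0.29 between KO and WT in its brightest set and by -0.13 and -0.18 in its other sets. In HZ against WT its brightest set differed by 0.47 ± 0.23 (adjusted p = 0.79). In KO against HZ, 0 of the 5 were higher and 2 lower at an unadjusted p under 0.05, beside 3.96% and 3.76%. The median there was -0.38, beside -0.03.

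Of 9 deep layer and subplate markers, 5 were above 0 and 4 below in KO against WT, with a median of 0.22 beside 0.02. Over all probe sets, 53.7% were above 0. At an unadjusted p under 0.05, 1 was higher and 0 lower, beside 4.43% and 3.59% of all probe sets. In KO against HZ, 2 were higher, Sox5 among them, and 0 lower, beside 3.96% and 3.76%, with a median of 0.08 beside -0.03. The summed signal of the 9 markers was 4311 to 6871 in WT, 4694 to 6615 in HZ and 6612 to 8185 in KO, and Foxp1 made up most of it. Foxp1 ranged from 2609 to 4933 in WT and 5210 to 5300 in KO in its brightest set (0.62 ± 0.21, adjusted p = 0.519), and its other sets differed by 0.22, 0.06, 0.30 and 0.38. Crym, a thyroid hormone binding protein, went the other way (-0.81 ± 0.45, adjusted p = 0.697), and Nr4a2, a subplate factor, differed by 0.43 ± 0.22 in HZ against WT (adjusted p = 0.79). The part of the cell and layer markers in the Sox11 and Cd24a values was not tested, and in tissue RNA a change in the share of a cell type and a change of RNA per cell cannot be told apart.

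The lists of other cell types are counted at the same unadjusted p under 0.05, beside the same shares of all probe sets. Of 12 interneuron markers, 1 was higher and 2 were lower in KO against WT, with Vip, a peptide of a class of interneurons, at -0.52 ± 0.19 (adjusted p = 0.537), and Calb1, a calcium buffer, at -0.79 ± 0.35 in HZ against WT (adjusted p = 0.789). Of 8 oligodendrocyte markers, 0 were higher and 2 lower. These were Cnp, a myelin enzyme (-0.84 ± 0.33, adjusted p = 0.575, and -0.15 in its other set), and Olig1, a lineage factor (-0.50 ± 0.20, adjusted p = 0.576). Its relative Olig2 differed by 0.48 ± 0.22 in HZ against WT (adjusted p = 0.789). Of 13 endothelial and mural markers 0 were higher and 1 lower, which was Slco1c1, a thyroid hormone transporter of brain vessels (-0.61 ± 0.22, adjusted p = 0.537). Flt1, a VEGF receptor, differed by 0.50 ± 0.27 in HZ against WT (adjusted p = 0.79).

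For 4 microglia markers and the single tested marker of ependymal, choroid and red cells both counts were 0 in KO against WT. Cd14, a receptor of microglia, differed by 0.28 ± 0.20 (adjusted p = 0.756), and C1qb, a complement subunit, by -0.51 ± 0.43 (adjusted p = 0.797). Folr1, the folate receptor of the choroid plexus, differed by 0.31 ± 0.22 (adjusted p = 0.752). Of 6 thalamic and striatal markers 0 were higher and 1, Calb2, was lower, and Drd2, a dopamine receptor, differed by 0.41 ± 0.25 (adjusted p = 0.728). In HZ against WT all 6 were above 0, beside 55.3% of all probe sets, with a median of 0.26 beside 0.04 over all genes. At an unadjusted p under 0.05, 2 were higher and 0 lower, beside 4.06% and 2.16%. In KO against HZ all 6 were below 0, where 46.6% of all probe sets were above 0, with a median of -0.15 beside -0.03. Here 0 were higher and 1 lower, beside 3.96% and 3.76%. Their summed signal was 3726 to 4275 in WT, 4384 to 5097 in HZ and 3044 to 3886 in KO. No marker had a signal of 0 on any array, and 7 of the 8 ependymal, choroid and red cell markers on the array were too dim to be tested.

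Across all 16 lists, 251 genes were listed, 218 were on the array and 165 were tested, and 0 passed the adjusted threshold in limma in any comparison. At an unadjusted p under 0.05, 13 were higher and 12 lower in KO against WT, 9 and 2 in HZ against WT, and 9 and 10 in KO against HZ. The shares of all probe sets were 4.43% and 3.59%, 4.06% and 2.16%, and 3.96% and 3.76%. The smallest adjusted p values were 0.114, 0.789 and 0.205. Over all 13576 probe sets, 1 passed in KO against WT (0.00737%), 0 in HZ against WT (0%, with 844 at an unadjusted p under 0.05) and 1 in KO against HZ (0.00737%). The probe set that passed both times was that of Gap43.

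Genes with the pattern most like that of Sox11 were picked over the same 9 arrays, so a high KO level in them follows in large part from the choice. The 5 highest correlations of log2 values with the Sox11 set were 0.956 for Sfpq, 0.953 for Nsun2, 0.945 for Ewsr1, 0.923 for Coro1c and 0.919 for Anp32b. Sfpq, a nuclear RNA-binding protein of splicing, gave 1905, 1402 and 2047 in WT, 1818, 1982 and 1894 in HZ, and 3318, 2582 and 2557 in KO. Ewsr1, another RNA-binding protein, gave 1918, 1768 and 2085 in WT, 1603, 1926 and 1545 in HZ, and 3298, 2376 and 2847 in KO. In both, as in Sox11, KO replicate 1 was the highest array. In Anp32b the genotypes overlapped (1102 to 1240 in WT, 1052 to 1274 in HZ and 1219 to 1485 in KO). With genotype means removed, Sox11 correlated at 0.88 with Sfpq and 0.89 with Ewsr1.

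The 3 most opposite patterns to Sox11 were those of Stk32b (-0.936), Cryab (-0.936) and C330007P06Rik (-0.923). Cryab, a small heat shock protein of glia, gave 770, 1086 and 567 in WT, 913, 857 and 981 in HZ, and 209, 366 and 538 in KO, with KO replicate 1 lowest. These genes were picked for their likeness out of all named sets, the arrays are the same for all of them, and the values carry no p.

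**Figure D4:**
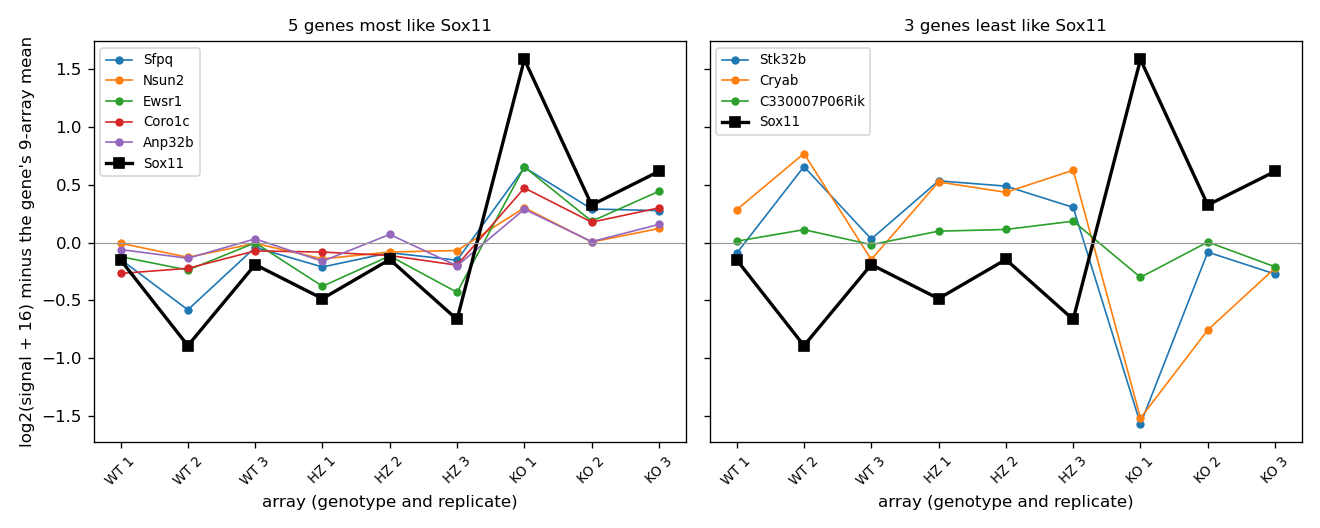
Values of log2(signal + 16), each minus its own mean over the 9 arrays, of Sox11, the 5 genes most like it and the 3 most unlike it, by array. Sox11, Sfpq and Ewsr1 are highest on KO replicate 1 and Cryab is lowest there.

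The patterns nearest the other members were different ones. Those of Sox4 were Aff4 (0.979), Ctcf (0.969), Ncbp1 (0.958), B3gnt5 (0.937) and Dnajc21 (0.937), all of them lowest on WT replicate 2, as Sox4 was. The most opposite were Rnaseh2c (-0.953), Bnip1 (-0.945) and Uros (-0.940), all highest on that array. Aff4, a scaffold of transcription elongation, gave 2015, 1044 and 2050 in WT and 1663 to 1833 in HZ, and 1625 to 2278 in KO. The likeness to Sox4 thus rested in part on 1 WT array.

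For Dcx the nearest were Lypd1 (0.909), Zfp740 (0.886), Tubb5 (0.882), Adam8 (0.880) and Cisd1 (0.880), and the most opposite were Bet1 (-0.966), Lgals3bp (-0.940) and Ppp6r2 (-0.912). Tubb5, a beta-tubulin of dividing and young cells, ranged from 14388 to 17706 in WT, 13755 to 14708 in HZ and 14488 to 18412 in KO, which overlapped as Dcx did. For Cd24a the nearest were Kcna7 (0.943), Oxct1 (0.928), Ugp2 (0.917), Tapbp (0.891) and Mphosph8 (0.872), and the most opposite were Prl7c1 (-0.969), Aprt (-0.933) and Atox1 (-0.929). Oxct1, an enzyme of ketone body use, ranged from 7276 to 8892 in WT, 7880 to 8830 in HZ and 8181 to 9269 in KO, with the genotypes overlapping. None of these genes appears among the 5 nearest of more than 1 member.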

How the data were processed

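Per the labels, layer IV RNA was labelled in 2 rounds of cDNA synthesis and hybridised to 1 array per mouse. The deposited values are linear intensities that the authors made with MAS5 and Affymetrix Expression Console (source: the submitters' processing notes), and their trimmed mean of 500.2 on every array shows a common scale. MAS5 signals of dim sets are noisy. Intensities were taken as log2(signal + 16), so folds of dim sets are understated. The 64 control sets were removed and the brightest 60% by mean log2 value kept (13576 sets, lowest mean signal 118). limma 3.58.1 in R 4.3.3 (lmFit, contrasts, eBayes with trend) was fitted to all 9 arrays with genotype as the only term, 2-sided, with 6 residual and 6.94 prior degrees of freedom. Adjusted p-values are Benjamini-Hochberg over all kept sets, with a threshold of 0.05. The procedure was tested on simulated data. With 3 arrays per genotype, the number of arrays limits precision.

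Of the sets, 20393 had 1 gene symbol, 691 several and 1542 none, and 20364 matched RefSeq (GRCm38.p6) by Entrez identifier. A list gene is represented by its brightest kept set. The members and the lists were chosen with earlier results of these data known, so no p is given for the members. Genes were named by a rule: in each list the 2 of smallest p in KO against WT and the 1 in each other comparison, and for each member the 5 most and 3 least correlated genes. Other genes were named after their values were seen where the text needed an example. The counts of the immature neuron list were also computed under every alternative setting, an addition chosen after seeing the data. Replicate numbers did not pair the arrays: arrays of the same number deviated from their genotype means with r = -0.26 to 0.11 over 9 pairs, so no block was used in the reported fit.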

Additional observations from a re-analysis of the deposited data

How the results depend on the processing

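The 4 members' brightest sets were recomputed under 21 alternatives for each of 3 comparisons, and 251 of 252 values moved by less than 1 SD between replicates. The exception was Dcx in HZ against WT, at -0.15 with arrays scaled to one median. Some alternatives could not move a difference by their design. These were the changes of the brightness filter, no intensity trend, the replicate block, the sex term and only the 2 genotypes compared. Leaving out an array of the genotype not compared was another. The 251 thus include values that were fixed in advance. Sox11 stayed between 0.88 and 1.51 in KO against WT and between 0.90 and 1.53 in KO against HZ. Sox4 in KO against WT turned sign without WT replicate 2 (-0.17) and with array weights (-0.02), and Dcx was -0.01 with one median or without KO replicate 3. The sign of HZ against WT turned under some alternatives for all 4 genes, whose values lay near 0 (Sox4 -0.51 to 0.30). The replicate block left Sox11 at 1.25 and could change no member's value, because each genotype holds each replicate number once.

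Other probe sets gave other values: Sox4 in HZ against WT was 0.97 with 1449370_at, and Dcx in KO against WT was -0.16 with 1418141_at. With 1418141_at, 1418140_at and 1448974_at, Dcx was -0.43, 0.46 and 0.28 in HZ against WT, and 0.27, -0.37 and -0.21 in KO against HZ.

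Probe sets past the adjusted threshold in KO against WT, 1 as reported, were 0 with no filter, with no intensity trend and with only the 2 genotypes compared, 5 with array weights, and 0 to 2 with an array left out. List genes were 1 (Gja1) with array weights. In HZ against WT, 3 sets passed with array weights and 0 to 2 with an array left out. In KO against HZ, 0 passed with no filter, quantile normalization, one median, no trend or only the 2 genotypes compared, 2 with the replicate block, 3 with a term for the 3′/5′ ratio, and 0 to 2 with an array left out. With 3 arrays per genotype and dim sets near background, small differences were not detectable.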
